A study of Mus musculus with 29 samples.

Results

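The endoplasmic reticulum (ER) folding genes Hspa5, Hsp90b1, Calr, Pdia3, Pdia4, Pdia6 and Dnajb11 and the ER stress regulators Xbp1, Ddit3 and Atf4 were followed in the aortic arch of WT and Ercc1Δ/- mice. They are 10 of the 56748 genes in the counts table, taken as a list of known ER chaperone and unfolded protein response genes and matched by symbol to 1 Ensembl gene each. Ddit3 has a further identifier, nested in the first, that held 0 counts in all samples. All 10 had enough counts for testing.

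The ER folds and checks proteins that a cell secretes or places in its membranes. When unfolded protein accumulates there, the sensors IRE1, PERK and ATF6 start the unfolded protein response. IRE1 splices Xbp1 mRNA, ATF6 is cut to a free transcription factor, and both raise ER chaperones, while PERK slows translation and favours that of Atf4 mRNA, whose protein turns on amino acid and stress genes, Ddit3 (CHOP) among them. In the aortic wall, smooth muscle cells and fibroblasts make large amounts of collagen and elastic fibre proteins, all of which pass through the ER.

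RNA was sequenced from the perfused aortic arch of 1 mouse per sample. All mice were F1 hybrids of C57BL6J and FVB. The Ercc1Δ/- mice carry, in every cell, 1 loss-of-function allele of Ercc1 and 1 that encodes a truncated protein. Ercc1 encodes a subunit of a DNA repair endonuclease. The WT mice were littermates of the Ercc1Δ/- mice. At 6 weeks of age there were 5 WT and 5 Ercc1Δ/- mice fed ad libitum (AL). At 22 weeks there were 4 WT and 4 Ercc1Δ/- mice fed AL, and 5 WT and 5 Ercc1Δ/- mice on 30% dietary restriction (DR). Each group had 1 or 2 females. A further WT mouse of 22 weeks fed AL, sample 003, had only 400410 counts and was left out. The other 28 samples had between 921167 and 9616382 counts on genes. Depth was lower in the Ercc1Δ/- groups of 22 weeks, with medians of 2392575.5 counts on AL and 1576566 on DR, than in WT, with medians of 6212607 and 5557760. Levels are given as CPM, the counts brought to 1 common library size after TMM scaling. Differentially expressed genes (DEGs) are those that changed by 1.2-fold or more with an adjusted p, after Benjamini-Hochberg over 12353 genes, not above 0.05 in edgeR's quasi-likelihood test. Smooth muscle markers summed to between 16650 and 42710 CPM, so the tissue label matched its defining markers. Ercc1 itself was lower in Ercc1Δ/- by a log2 fold change of -1.40 at 6 weeks, -0.96 at 22 weeks on AL and -1.01 on DR (adjusted p = 3.4e-04, 0.0029 and 5.1e-04, edgeR).

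Of the 7 chaperone genes, 4 hold a known sequence element near their start sites. The genes were listed as known ER chaperone and unfolded protein response genes, so this element of that response is not independent of their choice. The ER stress response element (ERSE), to which NF-Y and ATF6 or XBP1 are known to bind, has the letters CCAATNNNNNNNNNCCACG. It was searched on both strands of RefSeq promoter windows that run from 250 bases before to 50 bases after each gene start (table of GRCm38.p6, placed here on GRCm39 by exact match). It was found in 39 of 32851 windows (0.119%) and in 4 of the 10 listed genes, Hspa5, Hsp90b1, Calr and Pdia6, with 2 matches in Hsp90b1. The windows of Pdia3, Pdia4, Dnajb11, Xbp1, Ddit3 and Atf4 held no match. The 5 matches are shown in the direction of the gene, with CCAAT and CCACG, or CGTGG and ATTGG for the reverse orientation, in capitals:
Hspa5, chr2:34662029-34662063, plus strand: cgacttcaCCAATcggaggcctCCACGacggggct
Hsp90b1 distal, chr10:86541494-86541528, minus strand: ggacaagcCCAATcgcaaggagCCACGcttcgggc
Hsp90b1 proximal, chr10:86541389-86541423, minus strand: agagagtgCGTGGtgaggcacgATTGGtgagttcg
Calr, chr8:85573696-85573730, minus strand: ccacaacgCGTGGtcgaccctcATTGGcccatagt
Pdia6, chr12:17316484-17316518, plus strand: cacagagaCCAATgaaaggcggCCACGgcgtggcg
The Hspa5 element lies 65 to 47 bases before the RefSeq start and that of Pdia6 98 to 80 bases before it. The distal Hsp90b1 element lies 212 to 194 bases before the start, the proximal one ends 89 bases before it, and that of Calr lies 162 to 144 bases before it. The 9 bases between the capitals differ from element to element.

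The related element ERSE-II, ATTGG and CCACG with 1 base between them, was in 12 windows (0.0365%), that of Dnajb11 among them. The short parts of the ERSE are common, with CCAAT in 37.4% and CCACG in 32.8% of all windows. An XBP1 motif, TGACGTGA, was in 0.441% of windows and in that of Hspa5, and its variant TGACGTGG, in 0.676% of windows, was in none of the 10. TTGCATCA, a composite element of ATF4 and C/EBP factors, was in 0.895% of windows and in none of the 10. These matches describe the letters in the windows and not binding.

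Hspa5 (BiP), the main Hsp70 chaperone of the ER, and Calr (calreticulin), a chaperone for glycoproteins, were the most abundant of the list. Their medians over the 28 mice were 726.6 and 767.5 CPM. Hsp90b1 (GRP94), the Hsp90 of the ER, and Pdia3 (ERp57), a disulfide isomerase that works with calreticulin, followed with 505.1 and 499.9 CPM. Pdia6, Pdia4 and Dnajb11, the first 2 disulfide isomerases and the third an Hsp40 partner of BiP, had medians of 162, 113 and 89.1 CPM. Per kilobase of annotated exon the mean levels were 204 CPM for Calr, 134 for Hspa5, 103 for Pdia3, 85.1 for Hsp90b1, 58.9 for Atf4, 26 for Pdia6, 24.9 for Dnajb11, 20.3 for Xbp1, 15.8 for Pdia4 and 5.17 for Ddit3. Ddit3 was thus the scarcest, with 13 to 317 counts per sample. Overlaps between genes were read from a GENCODE annotation later than the Ensembl one used for counting, in which they were not checked. Genes on the opposite strand cover 87.1% of the exon bases of both Hspa5 (Rabepk) and Dnajb11 (Gm30505), 31.5% of those of Pdia3 and 18.7% of those of Pdia6, but none of those of Hsp90b1, Calr, Pdia4 and Atf4. Whether the counting used the strand is not given in the sources used here, so the counts of Hspa5 and Dnajb11 are uncertain to that extent.

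The group means of each gene differed by only 1.28 to 1.66 times between the lowest and the highest group. The group with the lowest mean was Ercc1Δ/- of 22 weeks on DR, and the highest WT of 22 weeks on AL, for Hspa5, Hsp90b1, Calr, Pdia3, Pdia4, Pdia6 and Xbp1. Neighbours in that order overlapped in their ranges for all 10 genes, apart from Calr between Ercc1Δ/- of 6 weeks and WT of 22 weeks on AL. Summed over the 7 chaperones, the level was 3470 ± 530 CPM (SD, n = 4) in WT of 22 weeks on AL and 2491 ± 112 CPM (SD, n = 5) in Ercc1Δ/- on DR, with the other groups between means of 2740.0 and 3009 CPM. Dnajb11 was lowest in WT on DR and highest in Ercc1Δ/- of 22 weeks on AL. Atf4 was lowest in Ercc1Δ/- of 6 weeks and highest in WT on DR, and Ddit3 was lowest in WT of 6 weeks and highest in Ercc1Δ/- of 22 weeks on AL.

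**Figure D1:**
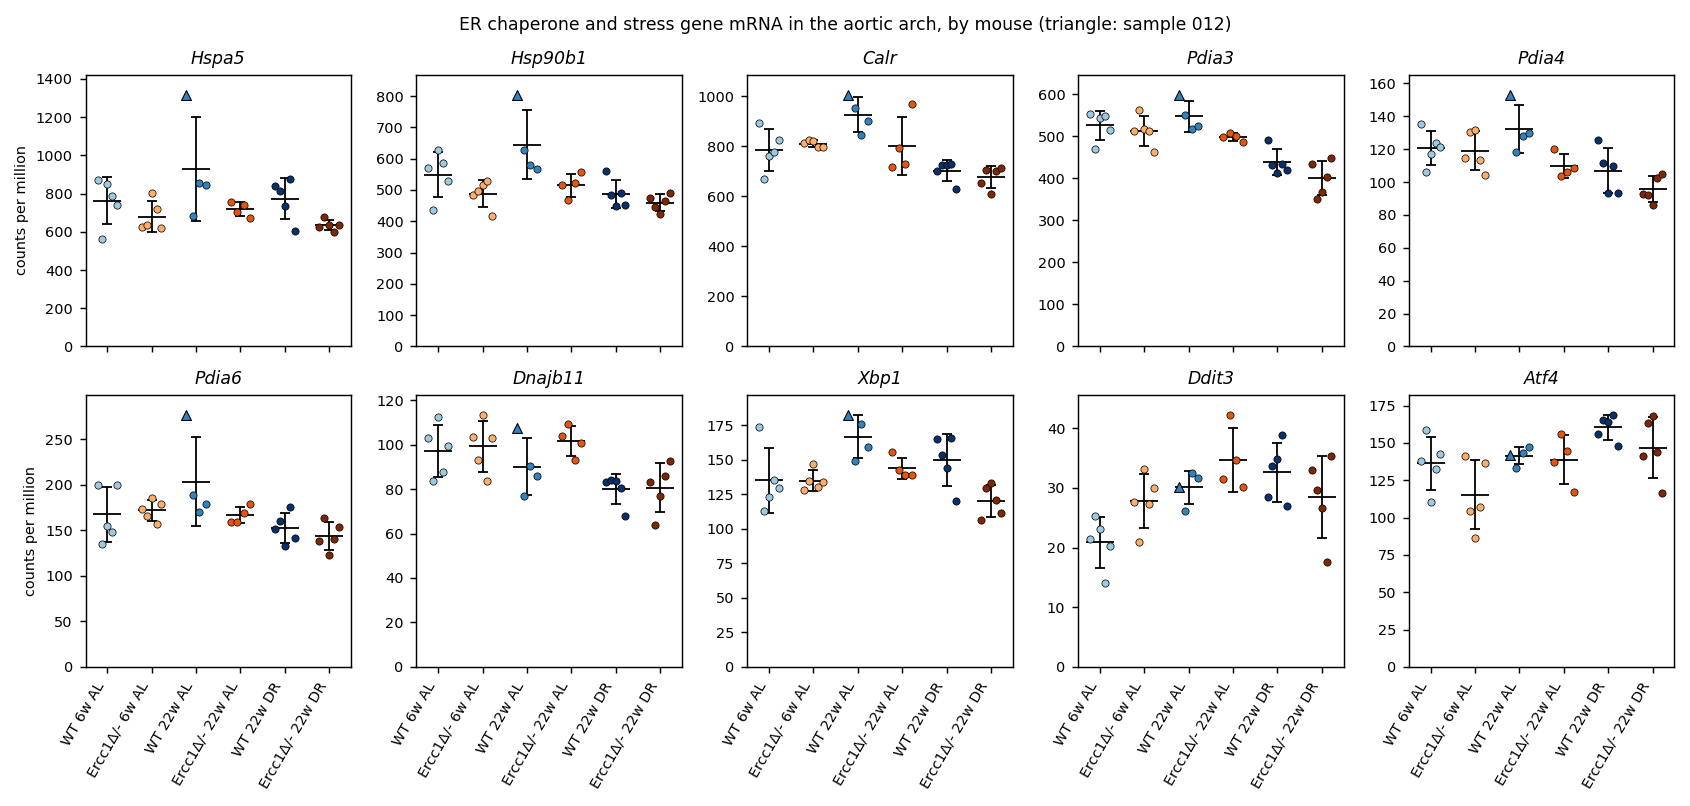
Level of each gene in CPM (linear axis from 0) in the 28 mice by group, with horizontal bars for the mean and error bars for the SD (n = 4 or 5), and a triangle for sample 012. The triangle is the highest point for 7 of the 10 genes, and the Calr and Pdia3 points of WT mice on DR lie below all those of WT mice of 22 weeks on AL.

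Calr and Hsp90b1 were lower on DR in WT mice. Calr (chromosome 8, 85567946 to 85573667, minus strand) had 846, 899, 952.5 and 1006 CPM in the WT mice of 22 weeks on AL and 631, 700, 724, 726 and 730 CPM on DR. The groups did not overlap. The log2 fold change was -0.40 (SE 0.090, adjusted p = 0.025, edgeR). Hsp90b1 (chromosome 10, 86526073 to 86541446, minus strand) had 566, 580, 627 and 805 CPM on AL and 448, 451, 484, 491 and 560 CPM on DR. These groups came close, at 560 and 566 CPM, without overlapping. Here and below, how many of all tested genes lack overlap between groups was not counted, so overlap describes the values and is not a test. The log2 fold change was -0.40 (SE 0.097, adjusted p = 0.035, edgeR). Of the 10 genes, these 2 were DEGs of DR in WT, both lower, where 1.17% of all tested genes were DEGs in either direction. DESeq2 also called Pdia3.

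The other chaperones had negative estimates in WT that did not pass. Pdia3 had 516, 525, 549 and 599 CPM on AL and 413, 419, 432, 434 and 490 CPM on DR, without overlap, and its log2 fold change of -0.32 just missed the threshold (adjusted p = 0.053, edgeR). Pdia6 and Pdia4 had log2 fold changes of -0.41 and -0.30 (adjusted p = 0.093 and 0.17), and both overlapped between the diets. Those of Hspa5, Dnajb11 and Xbp1 lay between -0.24 and -0.14. The median over the 10 genes was -0.27, and over all tested genes 0.01.

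Both calls in WT depended on single mice and on the model. Without sample 012 neither passed, with log2 fold changes of -0.36 for Calr and -0.29 for Hsp90b1 (adjusted p = 0.053 and 0.11, edgeR). Calr was also lost without sample 018, 020 or 021, and Hsp90b1 without 018, 017, 010, 028 or 021. Both were lost without the sex term (adjusted p = 0.052 for Calr and 0.068 for Hsp90b1) and with sample 003 added. Hsp90b1 was also lost in 1 fit of all 28 samples (adjusted p = 0.068) and after thinning to equal depth (adjusted p = 0.15), where Pdia6 was called (-0.60, adjusted p = 0.015). Without sample 012 the estimates of Pdia6 and Hspa5 in WT were -0.24 and -0.04.

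In Ercc1Δ/- mice no gene of the list was a DEG of DR by edgeR (1.72% of all tested genes were), 4 had an unadjusted p under 0.05, all lower, and DESeq2 called Pdia3. Pdia3 had 486, 499, 501 and 508 CPM on AL and 352, 367, 403, 433 and 447 CPM on DR. The groups did not overlap, and the log2 fold change of -0.31 was close to that in WT (adjusted p = 0.057, edgeR). Dnajb11 had 93.2, 101, 104 and 109 CPM on AL and 63.7, 77.1, 83.2, 86.1 and 92.8 CPM on DR, with a log2 fold change of -0.33 (adjusted p = 0.12, edgeR). Calr, with 719, 731, 792 and 969 CPM on AL and 608, 654, 701, 706.5 and 712 CPM on DR, had -0.24 (adjusted p = 0.18). Xbp1 had 139, 139, 142 and 155 CPM on AL and 106, 111, 121, 130 and 133 CPM on DR. Its log2 fold change was -0.28 (adjusted p = 0.17, edgeR). Dnajb11, Calr and Xbp1 did not overlap between the diets either. The share of all tested genes without overlap was not counted. For Hsp90b1 the estimate was -0.16.

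The effect of DR was not shown to differ between the genotypes. None of the 10 genes had an interaction of genotype and diet by edgeR, where 0.089% of all tested genes had one, and DESeq2 called 0. An unadjusted p under 0.05 (edgeR) was held by 0 of the 10 and by 1053 of the 12353 tested genes. The smallest adjusted p was 0.67. A contrast that averages the effect of DR over both genotypes, added after the results by genotype were known, therefore used all 18 mice of 22 weeks. In it Pdia3, Calr, Hsp90b1 and Pdia6 were lower on DR, with log2 fold changes of -0.32, -0.32, -0.28 and -0.31 (SE 0.059, 0.064, 0.069 and 0.086, adjusted p = 0.0026, 0.0045, 0.018 and 0.038, edgeR). Of all tested genes, 3.69% were DEGs in this contrast. The 10 genes were listed with earlier results of these data known and many vary together, so setting 4 of 10 beside that share is not a test. Pdia4, Dnajb11 and Xbp1 had estimates of -0.25, -0.24 and -0.21 (adjusted p = 0.051, 0.062 and 0.085), and Hspa5 -0.21 (adjusted p = 0.22). Calr and Pdia3 passed under each of the 26 alternatives, whereas Hsp90b1 was lost under 4 and Pdia6 under 12 of them. Hsp90b1 and Pdia6 were both lost without sample 012 (-0.22 each) and without sample 026 (-0.26 and -0.29). For Hsp90b1 these 2 losses came from the 1.2-fold limit, as its adjusted p was at most 0.049 with any 1 mouse left out (edgeR). It was also lost on its adjusted p with sample 003 added (0.055) and after thinning to equal depth (0.0501, edgeR). The adjusted p of Pdia6 was 0.065 without sample 012 (edgeR).

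**Figure D2:**
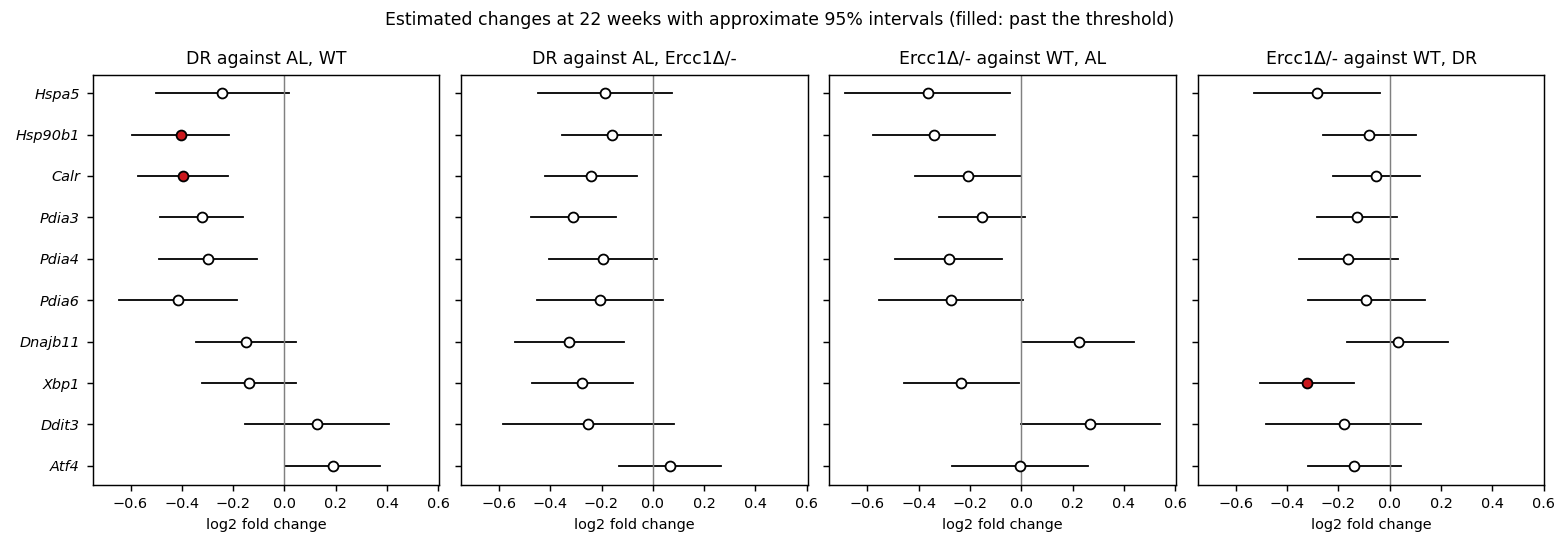
Log2 fold changes at 22 weeks with approximate 95% intervals for the 10 genes, in 4 comparisons of DR with AL and of Ercc1Δ/- with WT, with filled points for DEGs. The filled points are Hsp90b1 and Calr for DR in WT and Xbp1 for genotype on DR, all to the left of 0.

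Other measures differed with diet too. Among the secreted collagen chains, 3 of 12 were lower on DR in WT, Col1a1 (-0.70), Col3a1 (-0.71) and Col1a2 (-0.40) on the log2 scale. In Ercc1Δ/- 1 of the 12 was lower. Of all tested genes, 1.17% were DEGs of DR in WT and 1.72% in Ercc1Δ/-. Macrophage markers were lower on DR for 1 of 8 in WT and 4 of 8 in Ercc1Δ/-, where they summed to 551 to 1009 CPM on AL and 371 to 1190 CPM on DR. The part of these cells in the change was not tested, and fewer cells of a type cannot be told apart from less RNA per cell in whole tissue. Markers of B and plasma cells, which are rich in ER, summed to 0 to 34 counts per sample, and those of T cells to 0 to 48. Of 13 clock genes none was a DEG of DR in WT by edgeR, and 8 had an unadjusted p under 0.05. Over all 12353 tested genes, 1470 had one. Dbp, a clock output gene chosen after its values were seen, had a median of 371 CPM in WT of 22 weeks on AL (45.3 to 474), 75 CPM in WT on DR (40.1 to 114), 97.5 CPM in Ercc1Δ/- on AL (66.7 to 132) and 29.3 CPM in Ercc1Δ/- on DR (19.7 to 105). The part of sampling time in the levels of the chaperones was not tested.

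Sample 012, a male WT mouse of 22 weeks fed AL, stood apart. It had the highest level of all 28 mice for Hspa5, Hsp90b1, Calr, Pdia3, Pdia4, Pdia6 and Xbp1. Hspa5 was 1318 CPM in this mouse and 685, 846 and 858 CPM in the rest of its group. The 7 chaperones summed to 4265 CPM, against 3188 to 3231 CPM in the others. The same mouse had 1160 CPM of clock genes, against 2276 to 2542, and 364 CPM of immediate early genes, against 457 to 1029. Its heat-shock genes from outside the ER, at 8386 CPM, lay within the range of the others (7246 to 9081). Its smooth muscle, fibroblast and endothelial markers did so too. Its fat, heart muscle and chondrocyte-like markers, at 1018, 291 and 277 CPM, lay above the others, which reached 786, 201 and 219 CPM, and its macrophage markers, at 254 CPM, below the others, which began at 269 CPM. Its Atf4 (142 CPM) and Ddit3 (30.1 CPM) also lay within the range of the others.

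Hspa5, Hsp90b1 and Pdia4 had lower estimates in Ercc1Δ/- than in WT at 22 weeks on AL, without passing the threshold. Hspa5 had 674, 703, 741 and 757 CPM in Ercc1Δ/-, within the range of WT from 685 to 1318 CPM but for its lowest mouse, and a log2 fold change of -0.37 (SE 0.16, adjusted p = 0.16, edgeR). Hsp90b1 had 468, 515, 523 and 556 CPM in Ercc1Δ/-, all below the WT mice, and -0.34 (adjusted p = 0.070). Pdia4 had 104, 106, 109 and 120 CPM in Ercc1Δ/- and 118, 128, 130 and 153 CPM in WT, with -0.28 (adjusted p = 0.089). Pdia6, Xbp1, Calr and Pdia3 also had negative estimates, from -0.27 to -0.15. Dnajb11 and Ddit3 went the other way, with 0.22 and 0.27 (adjusted p = 0.21 and 0.23, edgeR). None of the 10 was a DEG by edgeR where 11.5% of all tested genes were, and DESeq2 called Hsp90b1. Of the 10, 3 had an unadjusted p under 0.05 (edgeR), all lower. Over all 12353 tested genes, 3149 had one, in either direction. The estimate of Hspa5 was -0.16 without sample 012, and that of Pdia4 was 0.03 in 1 draw of counts thinned to equal depth.

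Xbp1 was the 1 gene of the list that differed between the genotypes on DR. Xbp1 (chromosome 11, 5470606 to 5483027, plus strand) encodes the transcription factor that IRE1 activates by splicing its mRNA, and counts per gene do not show that splicing. It had 120, 144, 154, 165 and 166 CPM in WT and 106, 111, 121, 130 and 133 CPM in Ercc1Δ/-. Only the lowest WT mouse, sample 021, lay within the range of Ercc1Δ/-. The log2 fold change was -0.32 (SE 0.093, adjusted p = 0.021, edgeR), and DESeq2 also called it. Of all tested genes, 12.9% were DEGs in this comparison, so 1 of 10 is near that share. The call was lost without sample 007, 017, 028 or 006. In the GENCODE annotation used here, all exon bases of Xbp1 lie under Ccdc117 on the opposite strand. Under it, reads of the 2 genes can be told apart only if the counting used the strand. The earlier Ensembl annotation used for counting was not checked for this overlap. Xbp1 had 122 to 1721 counts per sample, and reads that HTSeq set aside as ambiguous between genes were 1.4% to 1.82%.

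Hspa5 on DR had 607, 733, 814, 837 and 878 CPM in WT and 598, 628, 635, 636 and 676 CPM in Ercc1Δ/-. The groups overlapped through WT sample 021, the lowest of its group also for Calr, Dnajb11, Xbp1, Ddit3 and Atf4. The log2 fold change was -0.28 (adjusted p = 0.15, edgeR). Averaged over the diets, in a contrast also added after the results were known, Hspa5 was lower in Ercc1Δ/- by -0.31 (SE 0.096, adjusted p = 0.021). It was the 1 DEG of the 10, with 20.7% of all tested genes called, and it was lost without sample 012 (-0.21), 017, 013, 026 or 006. Without sample 012 its adjusted p was 0.039 (edgeR), so that loss came from the 1.2-fold limit. In that contrast Xbp1 had an adjusted p of 0.0080 at -0.26, just under the 1.2-fold limit.

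Markers of the cells of the wall differed with genotype as well. At 22 weeks on AL, 6 of 8 smooth muscle markers were lower and 6 of 8 macrophage markers higher in Ercc1Δ/-, and on DR 7 of 8 were lower and 4 of 8 higher. Of the 12 secreted collagen chains, 10 were lower and 1 higher on AL, and 8 lower and 1 higher on DR. Of all tested genes, 11.5% were DEGs between the genotypes on AL and 12.9% on DR. The share of mitochondrial counts was 5.37% to 5.96% in Ercc1Δ/- and 2.47% to 3.72% in WT at 22 weeks on AL. The part of these differences in the levels of the ER genes was not tested. The heat-shock genes that serve folding outside the ER were lower in Ercc1Δ/- for 10 of 12 on AL and 11 of 12 on DR. Their median changes were -0.87 and -1.03 on the log2 scale. The 10 ER genes had medians of -0.22 and -0.13, and all tested genes 0.03 and 0.00.

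At 6 weeks the genotypes were close. None of the 10 was a DEG by edgeR or DESeq2 (1.73% of all tested genes were by edgeR), and 1, Ddit3, had an unadjusted p under 0.05. Over all 12353 tested genes, 1544 had one (edgeR). Hspa5 was 763 ± 122 CPM in WT and 680 ± 79.4 CPM in Ercc1Δ/- (SD, n = 5 each), and Calr was 785 ± 83.6 and 811 ± 13.7 CPM. Ddit3 had 20.9 ± 4.21 CPM in WT and 27.8 ± 4.55 CPM in Ercc1Δ/-, with 0.36 on the log2 scale (adjusted p = 0.21, edgeR), and Atf4 136 ± 17.5 and 115 ± 23.1 CPM, with -0.24 (adjusted p = 0.42). The median log2 fold change over the 10 was -0.00, and over all tested genes 0.02.

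Between 6 and 22 weeks on AL, no gene of the list was a DEG in WT, where 0.219% of all tested genes were, or in Ercc1Δ/-, where 4.53% were, by edgeR or DESeq2. Unadjusted, 4 of the 10 had a p under 0.05 in WT and 2 in Ercc1Δ/-, all higher. Over all 12353 tested genes, 1026 did in WT and 2151 in Ercc1Δ/-, in either direction (edgeR). The median log2 fold change was 0.24 in WT and 0.06 in Ercc1Δ/-, against 0.00 and 0.01 for all tested genes. No interaction of genotype and age was found among the 10 by edgeR (0.801% of all tested genes), and the smallest adjusted p was 0.50. DESeq2 called 0. An unadjusted p under 0.05 (edgeR) was held by 0 of the 10 and by 1368 of the 12353 tested genes. The comparisons of age, genotype and diet share groups and are not independent of each other.

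Ddit3, the stress-induced factor CHOP, had 14.1, 20.3, 21.5, 23.1 and 25.3 CPM in WT of 6 weeks and 26.1, 30.1, 31.6 and 32.5 CPM in WT of 22 weeks on AL. The groups did not overlap, a trait not counted over all tested genes, and the log2 fold change was 0.45 (SE 0.13, adjusted p = 0.21, edgeR). In Ercc1Δ/- it had 20.9 to 33.2 CPM at 6 weeks and 30.2 to 42.2 CPM at 22 weeks on AL, with 0.35 (adjusted p = 0.16). In the annotation used here, later than that used for counting, about 92% of its exon bases lie under genes of the opposite strand. Other genes of the same strand cover 52.4%, so the counts of Ddit3 are uncertain.

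Atf4, the factor whose translation rises under PERK, had 133, 142, 143 and 147 CPM in WT of 22 weeks on AL and 148, 156, 164, 165 and 169 CPM on DR. It was thus higher in every WT mouse on DR than in any on AL, a trait not counted over all tested genes. The log2 fold change was 0.19 (SE 0.095, adjusted p = 0.45, edgeR), opposite in sign to those of the chaperones. Ercc1Δ/- mice had 117 to 156 CPM on AL and 117 to 168 CPM on DR. Between genotypes at 22 weeks on AL the Atf4 estimate was -0.00 with an approximate 95% interval from -0.27 to 0.26.

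Of 27 tested targets of the PERK and ATF4 branch, 8 were DEGs between the genotypes at 22 weeks on AL, all higher in Ercc1Δ/-, and 19 did not pass. Of all tested genes 11.5% were DEGs here. The median log2 fold change of the 27 was 0.38, against 0.03 for all tested genes, and Ddit3 and Atf4 mRNA had 0.27 (adjusted p = 0.23, edgeR) and -0.00. The DEGs with the smallest p were Trib3, a pseudokinase induced by ATF4 (1.43, SE 0.29, adjusted p = 0.0021), Sesn2, a sestrin that restrains mTORC1 and is also a p53 target (0.72, SE 0.17, adjusted p = 0.0061), Slc3a2, the heavy chain of amino acid transporters (0.54, SE 0.13, adjusted p = 0.0070), and Psat1, an enzyme of serine synthesis (1.11, SE 0.27, adjusted p = 0.0095, all edgeR). DESeq2 called 8 as well, and the count was 6 to 10 over 8 alternatives. The list was written with earlier results of these data known, and several of its genes also answer to p53, hypoxia or amino acid supply.

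On DR 4 of the 27 targets were DEGs between the genotypes, all higher in Ercc1Δ/-, a share near the 12.9% of all tested genes. They were Sesn2 (0.80), Ddit4, an inhibitor of mTORC1 (2.15), Mthfd2, a mitochondrial enzyme of folate metabolism (1.38), and Slc3a2 (0.33). At 6 weeks only Nupr1, a stress-induced chromatin protein, was higher (0.41, adjusted p = 0.034), 1 of 27 where 1.73% of all tested genes were DEGs. From 6 to 22 weeks Psat1 (1.17) and Slc3a2 (0.51) rose in Ercc1Δ/-, 2 of 27 where 4.53% of all tested genes were DEGs. None was a DEG in WT by edgeR or DESeq2. In WT 2 of the 27 had an unadjusted p under 0.05, and 1026 of the 12353 tested genes did (edgeR). DR lowered Nupr1 (-0.62) and Atf5 (-0.53) in Ercc1Δ/- and Aldh18a1 (-0.70), an enzyme of proline synthesis, in WT. These are 2 of 27 and 1 of 27, where 1.72% and 1.17% of all tested genes were DEGs of DR. No target had an interaction of genotype with age or diet by edgeR, where 6 and 2 had an unadjusted p under 0.05 and DESeq2 called 1 and 0. Over all 12353 tested genes, 1368 and 1053 had such an unadjusted p (edgeR).

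**Figure D3:**
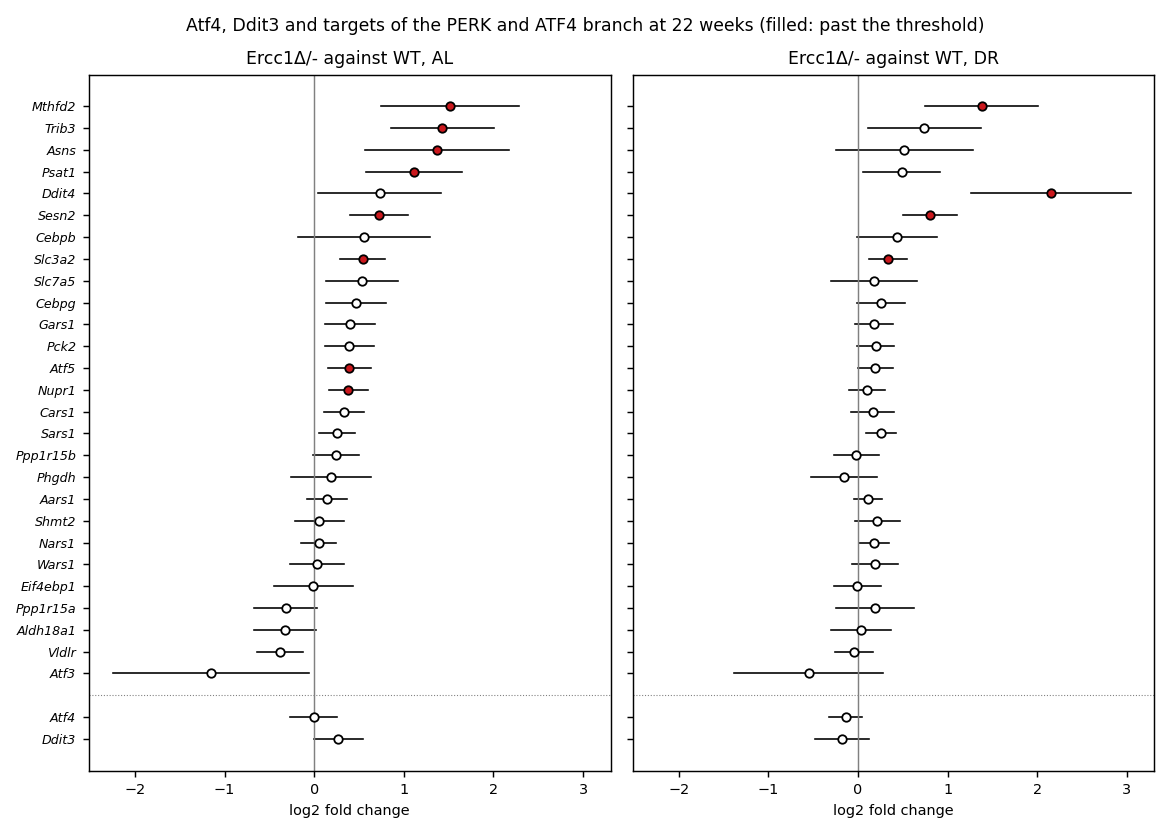
Log2 fold changes of Ercc1Δ/- against WT at 22 weeks with approximate 95% intervals, for the 27 tested targets of the PERK and ATF4 branch above the dotted line and for Atf4 and Ddit3 below it, on AL (left) and DR (right), with filled points for DEGs. On AL 8 targets are filled, while Atf4 and Ddit3 are open in both panels.

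Among the other genes of the ER, DEGs were few in each list, and some of their estimates were larger than those of the 10 genes. Of the 9 sensors and branch factors, Mbtps1, the protease that cuts ATF6, was lower in Ercc1Δ/- at 22 weeks on AL (-0.34, adjusted p = 0.018) and in Ercc1Δ/- with age (-0.45, adjusted p = 0.0027). Each is 1 of 9, where 11.5% and 4.53% of all tested genes were DEGs. On DR, Creb3l2 (-0.40) and Creb3l1 (-0.58), relatives of ATF6 that serve secretory cells, were lower in Ercc1Δ/- (adjusted p = 8.7e-04 and 0.0026, edgeR). These are 2 of 9, where 12.9% of all tested genes were DEGs. Ern1, Eif2ak3 and Atf6, which encode the sensors themselves, were not DEGs in any of the 11 comparisons by edgeR, with 1 unadjusted p under 0.05, that of Ern1 between genotypes at 22 weeks on AL (-0.35, adjusted p = 0.091).

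Of the 14 oxidative folding enzymes, Pdia5 (-0.61) and Qsox1 (-0.34) were lower in Ercc1Δ/- at 22 weeks on AL, 2 DEGs where 11.5% of all tested genes were. With age in Ercc1Δ/-, Pdia5 (-0.69), Erp29 (-0.49) and Qsox1 (-0.34) fell, 3 of 14 where 4.53% of all tested genes were DEGs. The count with age was 0 to 3 over 8 alternatives. On DR, Qsox1 (-0.59) and Txndc5 (-0.33) were lower and Tmx2 (0.41) higher in Ercc1Δ/-, 3 of 14 where 12.9% of all tested genes were DEGs. Qsox1, a secreted enzyme that forms disulfide bonds, was thus lower in Ercc1Δ/- on both diets. P4hb, the best known disulfide isomerase, was not a DEG in any comparison by edgeR, and its largest estimate with an unadjusted p under 0.05 was -0.19, for DR in Ercc1Δ/- (adjusted p = 0.30).

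Among the 17 other chaperones and co-chaperones, none was a DEG between genotypes at 22 weeks on AL by edgeR, where 11.5% of all tested genes were. DESeq2 called 2. An unadjusted p under 0.05 (edgeR) was held by 2 of the 17 and by 3149 of the 12353 tested genes. Hyou1, the exchange factor of BiP, had -0.53 there (adjusted p = 0.067). On DR, Creld1 (-0.36) was lower and Dnajc1 (0.28), a membrane J protein, higher in Ercc1Δ/-. These 2 of 17 are near the 12.9% of all tested genes. Among the 19 tested genes of ER-associated degradation, Edem1, a lectin that passes misfolded glycoproteins to degradation, was lower on DR in Ercc1Δ/- than on AL (-0.39, adjusted p = 0.047) and lower than in WT on DR (-0.37, adjusted p = 0.0097). Each is 1 of 19, where 1.72% and 12.9% of all tested genes were DEGs. In the translocon list Ssr2 fell with age in Ercc1Δ/- (-0.52, adjusted p = 0.020), 1 of 16 where 4.53% of all tested genes were DEGs. None of the 9 genes of the glycoprotein folding cycle was a DEG in any comparison by edgeR or DESeq2, and at most 2 had an unadjusted p under 0.05.

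Within groups, many of the chaperones varied together from mouse to mouse. With the group means removed, the 21 pairs among the 7 chaperones had Pearson r of 0.31 to 0.75 with a median of 0.51 over 28 mice. Of these, 11 passed at an adjusted p of 0.05 (permutation test within groups, two-sided, over 45 pairs). Hsp90b1 and Pdia3 had r = 0.75 (Spearman rho 0.76, adjusted permutation p = 0.0014, r = 0.69 without the 2 farthest samples). Calr and Pdia6 had r = 0.68 (rho 0.75, adjusted permutation p = 0.0014, r = 0.69 without the 2 farthest). The median r of the 21 pairs was 0.57 after sex and library size were also removed, and 0.41 without sample 012.

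Xbp1 went with Hspa5 (r = 0.69, rho 0.65, adjusted permutation p = 0.0014, r = 0.67 without the 2 farthest samples, 0.73 without sample 012) and with Pdia4 (r = 0.59, rho 0.53, adjusted permutation p = 0.017, r = 0.54 without the 2 farthest). Between Atf4 and the 7 chaperones r was negative, from -0.57 to -0.08, and 2 of the 7 pairs passed. For Hsp90b1 and Atf4 r was -0.57 (rho -0.66, adjusted permutation p = 0.0051, r = -0.63 without the 2 farthest) and for Pdia3 and Atf4 -0.52 (rho -0.56, adjusted permutation p = 0.045, r = -0.51 without the 2 farthest). Ddit3, at its low counts, had r from -0.21 to 0.27 with the chaperones, and no such pair passed.

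**Figure D4:**
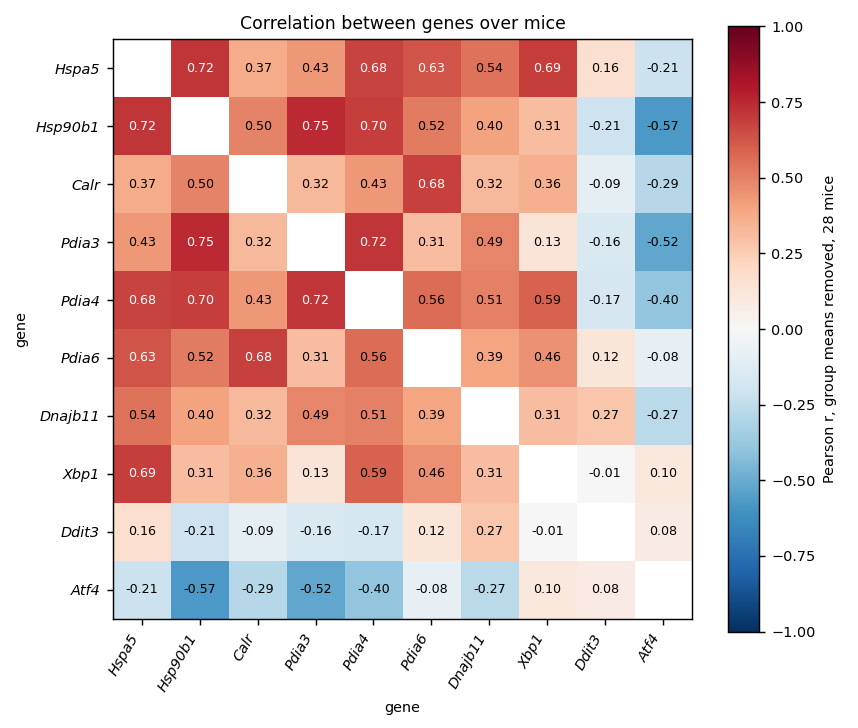
Pearson r between each pair of the 10 genes over 28 mice on log2 CPM with the group means removed, from blue (negative) to red (positive). The chaperones and Xbp1 form a red block, and the row of Atf4 is blue against all 7 chaperones.

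Of all other tested genes, the one most like Hspa5 over the 28 mice was Hyou1 (r = 0.81), followed by Castor2 (0.78), an arginine sensor homologue, Pgm5 (0.78), a cytoskeletal protein of muscle junctions, Palld (0.73), an actin-binding protein, and Dnajc3 (0.72), which restrains PERK. Hsp90b1 ranked 7, Xbp1 9, Pdia4 13 and Pdia6 36 in that list, whereas Dnajb11 ranked 105, Pdia3 314 and Calr 561. The 5 genes most like Atf4 were Amotl2 (0.80), Sco1 (0.78), Nrbf2 (0.76), Kcmf1 (0.75) and Tpst2 (0.73), none of them a listed gene. Without sample 012 the r of Hspa5 with Hyou1 was 0.74 and with Dnajc3 0.69.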

How the data were processed

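RNA was sequenced from 29 mouse aortic arches. Per the study's methods and the labels, the authors extracted UMIs with UMI-tools 1.1.2, trimmed with fastp, aligned with STAR 2.7.10a to mm39 with Ensembl annotation, removed UMI duplicates and counted over whole gene bodies with HTSeq 2.0.2. They deposited raw counts per gene. The 5 HTSeq lines without a gene held 12.6% to 18.7% of reads and were not used. Names and positions came from a later GENCODE annotation of GRCm39.

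Tests used R 4.3.3 and edgeR 4.0.16 (TMM, robust quasi-likelihood, group and sex) on genes where over 10 of 28 samples had over 10 counts. Genotype and age on AL used the 18 AL mice, and diet and genotype on DR the 18 mice of 22 weeks. Interactions needed only the adjusted p. SE is the log2 fold change over the root of F. Correlations used log2 CPM (prior count 2) and 100000 permutations.

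Named genes were the 10 listed genes, up to 4 DEGs of smallest p of each of 7 pathway lists per comparison, the 5 genes nearest to Hspa5 and to Atf4, and Ercc1. Dbp, P4hb, Ern1, Eif2ak3, Atf6, the collagens and Hyou1 between genotypes were named after their values were seen. The members and lists were chosen with earlier results of these data known. Code was tested on simulated counts. Each mouse gave 1 sample, and p-values measure the spread between mice. Alternatives were DESeq2 1.42.0, RLE size factors, no filter, sample 003 added, no sex term, 1 fit of all samples, another fold rule, thinning to 921167 counts and leaving out each mouse.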

Additional observations from a re-analysis of the deposited data

Results flagged for a closer look

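In 60 combinations of gene and group, 3 had 1 mouse farther from its group than Dixon's 95% limit, and chance alone gives about 1 in 20. Pdia3 in WT mice on DR was 490.3 CPM in sample 007 and 434 CPM in the next mouse. Pdia6 in WT mice of 22 weeks on AL was 276.8 CPM in sample 012 and 188.5 CPM in the next. Dnajb11 in WT mice on DR was 68 CPM in sample 021 and 80.6 CPM in the next. Without sample 007 Pdia3 was a DEG of DR in WT (log2 fold change -0.38, adjusted p = 0.021, edgeR).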

How the results depend on the processing

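The count of DEGs among the 10 genes stayed at 0 under all alternatives for genotype at 6 weeks, age in both genotypes and both interactions. For genotype at 22 weeks on AL it was 0 and became 1 with DESeq2, 2 without a filter, 1 with all 28 samples in 1 fit, and 0 to 2 when 1 mouse was left out (2 without sample 018, 1 without 026). For DR in WT it was 2 and became 4 without a filter, 0 with sample 003 added, 0 without the sex term, 1 in the fit of all 28, and 0 to 3 with 1 mouse left out (0 without 012, 018 or 021, and 1 without 020, 017, 010 or 028). For DR in Ercc1Δ/- it was 0 and became 1 with DESeq2, 1 without a filter, and 0 to 2 with 1 mouse left out (1 without 006, 2 without 022). For genotype on DR it was 1 and became 2 without a filter, 0 with 003 added, and 0 to 1 with 1 mouse left out. Averaged over genotypes, DR gave 4, 2 with 003 added, and 2 to 6 with 1 mouse left out (2 without 012 or 026, 6 without 022). Averaged over diets, genotype gave 1, 4 without a filter, 2 without the sex term, 2 in the fit of all 28, 4 without a fold limit, and 0 to 2 with 1 mouse left out. The median correlation of the chaperone pairs, 0.506, was 0.4148 without sample 012.

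Signs turned for some estimates of genes that were not DEGs. In 1 draw of thinned counts Pdia4 was 0.02774 for genotype on AL, -0.002186 for age in WT, 0.01755 for genotype on DR and 0.03659 for genotype averaged over diets. With 1 mouse left out, the interaction of genotype and diet for Hspa5 ran from -0.137 (without 012) to 0.2073, and Dnajb11 for genotype on DR from -0.07051 (without 022) to 0.08341. The causes were not tested. With sample 003 added, Calr and Hsp90b1 for DR in WT were both -0.35 (adjusted p = 0.075 and 0.11, edgeR) and Xbp1 for genotype on DR -0.32 (adjusted p = 0.091). Over all genes, the DEG counts and their range over the alternatives that keep every mouse (highest without a filter in each) were 214 (133 to 664) for genotype at 6 weeks, 1419 (678 to 2218) at 22 weeks on AL and 1595 (894 to 2060) on DR. They were 27 (17 to 351) for age in WT, 559 (296 to 1026) in Ercc1Δ/-, 144 (46 to 438) for DR in WT, 213 (103 to 440) in Ercc1Δ/-, 99 (51 to 478) and 11 (2 to 133) for the interactions with age and diet, 456 (255 to 732) for averaged DR and 2552 (1532 to 3299) for averaged genotype. No paired analysis was possible because each mouse gave 1 sample and no number is shared between groups.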
